A study of Mus musculus with 6 samples.

Results

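The cytosolic ribosome reads mRNA into protein, and its protein shell is built from genes named Rps for the small subunit, which decodes the mRNA, and Rpl for the large subunit, which joins the amino acids. Most of the mRNAs of these genes start with a C followed by a run of pyrimidines, the 5' terminal oligopyrimidine (TOP) tract, through which the kinase complex mTORC1 and the RNA-binding protein Larp1 control how strongly they are translated. Many ribosomal protein genes also have processed copies elsewhere in the mouse genome, and most of these are pseudogenes. The members were the protein-coding genes whose symbols are Rps or Rpl with a number, with or without a final a or x, together with Rplp0, Rplp1, Rplp2 and Rpsa. This gave 76 of the 54532 genes in the table, 30 of the small and 46 of the large subunit, and all 76 had enough counts to be tested.

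The cells came from the aorta of male wild-type mice and are named endothelial cells by the labels. In 3 cell isolations, 1 culture each was kept for 8 h in starvation medium as the control (Vehicle) and 1 was exposed for 8 h to 500 ng/mL lipopolysaccharide (LPS), the endotoxin of Gram-negative bacteria that cells sense through Tlr4. Both groups share the genotype and sex, the labels of the LPS cultures do not name their medium, and each group has 3 libraries of bulk RNA sequencing, numbered by isolation. Totals ranged from 16509197 to 25082714 counts, so that 3 counts, which a count of 0 allows, came to 0.1196 to 0.1817 CPM. CPM are counts scaled to a common library size, elsewhere in the text with TMM factors and for these 3 counts without them. The labelled cell type was not borne out by its defining markers: 8 of 10 endothelial genes were under 1 CPM in every library, Cldn5 had 0 counts, and the 10 summed to 10.8 to 12.8 CPM in Vehicle and 9.95 to 11.6 CPM in LPS. The 7 fibroblast markers summed to 6238 to 7435 CPM in Vehicle and 3975 to 5531 CPM in LPS, and the 5 pericyte markers to 1822 to 1933 and 1341 to 1607 CPM. Other sums were higher in LPS: the 7 smooth muscle markers came to 407 to 423 and 456 to 574 CPM, the 4 mesothelial and epithelial markers to 25.4 to 31.7 and 43.9 to 89.6 CPM, and the 6 macrophage markers to 11.7 to 14.4 and 17.6 to 20.4 CPM, with Adgre1 and Ptprc at 0 counts. The part of these markers' shifts in the results below was not tested, and in bulk RNA a change in the makeup of a culture and a change of RNA per cell cannot be told apart.

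The start of an mRNA is where the TOP tract lies. For 56 members RefSeq (GRCm38.p6) gave a start site, and a C followed by at least 4 pyrimidines (C or T), read on the gene's own strand, began within 20 bases of it in 45 of them (80.4%), in 18 of 22 small subunit and 27 of 34 large subunit genes. The same search found such a run in 52.2% of 27025 genes. With at least 7 pyrimidines after the C, the numbers were 29 of 56 members (51.8%) and 15.7% of genes. The 30 bases around the annotated start are shown for genes with high and low fold changes and for Rps6, with the tract in capitals, so that the runs can be compared; Rpl41 is shown as a gene without one in the searched window.
Rps27, chr3:90213634-90213663 (minus strand): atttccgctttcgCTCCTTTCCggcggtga
Rps6, chr4:86857353-86857382 (minus strand): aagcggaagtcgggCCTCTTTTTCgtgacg
Rpl38, chr11:114668565-114668594 (plus strand): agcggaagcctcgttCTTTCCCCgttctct
Rplp2, chr7:141447636-141447665 (plus strand): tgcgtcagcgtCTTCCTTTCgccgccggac
Rpl7a, chr2:26910792-26910821 (plus strand): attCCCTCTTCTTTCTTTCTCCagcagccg
Rpl15, chr14:18270972-18271001 (minus strand): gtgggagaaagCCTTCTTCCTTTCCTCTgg
Rps10, chr17:27635230-27635259 (minus strand): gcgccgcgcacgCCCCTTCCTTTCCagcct
Rpl41, chr10:128549154-128549183 (minus strand): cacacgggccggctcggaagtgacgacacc
Long tracts stood at the start of genes with high fold changes, such as Rpl7a, and of genes with low ones, such as Rpl15 and Rps10. Finding no run in a window says only that these letters are not there.

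Under LPS the ribosomal protein genes rose almost without exception. All 30 small subunit genes and 45 of 46 large subunit genes were called higher, and none was called lower (edgeR quasi-likelihood F-test, adjusted p below 0.05 over 14508 genes, with 24.9% of all tested genes called higher and 24.4% lower). The median log2 fold change was 1.20 in the small subunit (range 0.66 to 1.88) and 1.16 in the large subunit (range -0.03 to 1.62), beside a median of -0.00306 over all tested genes. The adjusted p-values of the 75 called members lay between 0.00109 and 0.0468 in edgeR's test. A called doubling or more (log2 fold change of at least 1) was found for 27 small and 38 large subunit genes, beside 721 of 14508 tested genes. Every LPS library was above every Vehicle library in 30 small and 44 large subunit genes, where 31.1% of all tested genes showed this; the exceptions were Rpl24 and Rpl21. Without isolation 2, edgeR called 0 members, beside 0.0542% of all tested genes called higher, with medians of 1.14 and 1.09. In that fit 30 small and 45 large subunit genes had an unadjusted p below 0.05, as did 5056 of 14763 tested genes. DESeq2 without isolation 2 called 28 and 43 higher, beside 10.5% of all tested genes. An offset for transcript length, described below with the values it bears on, lowered the medians to 0.77 and 0.72.

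**Figure D1:**
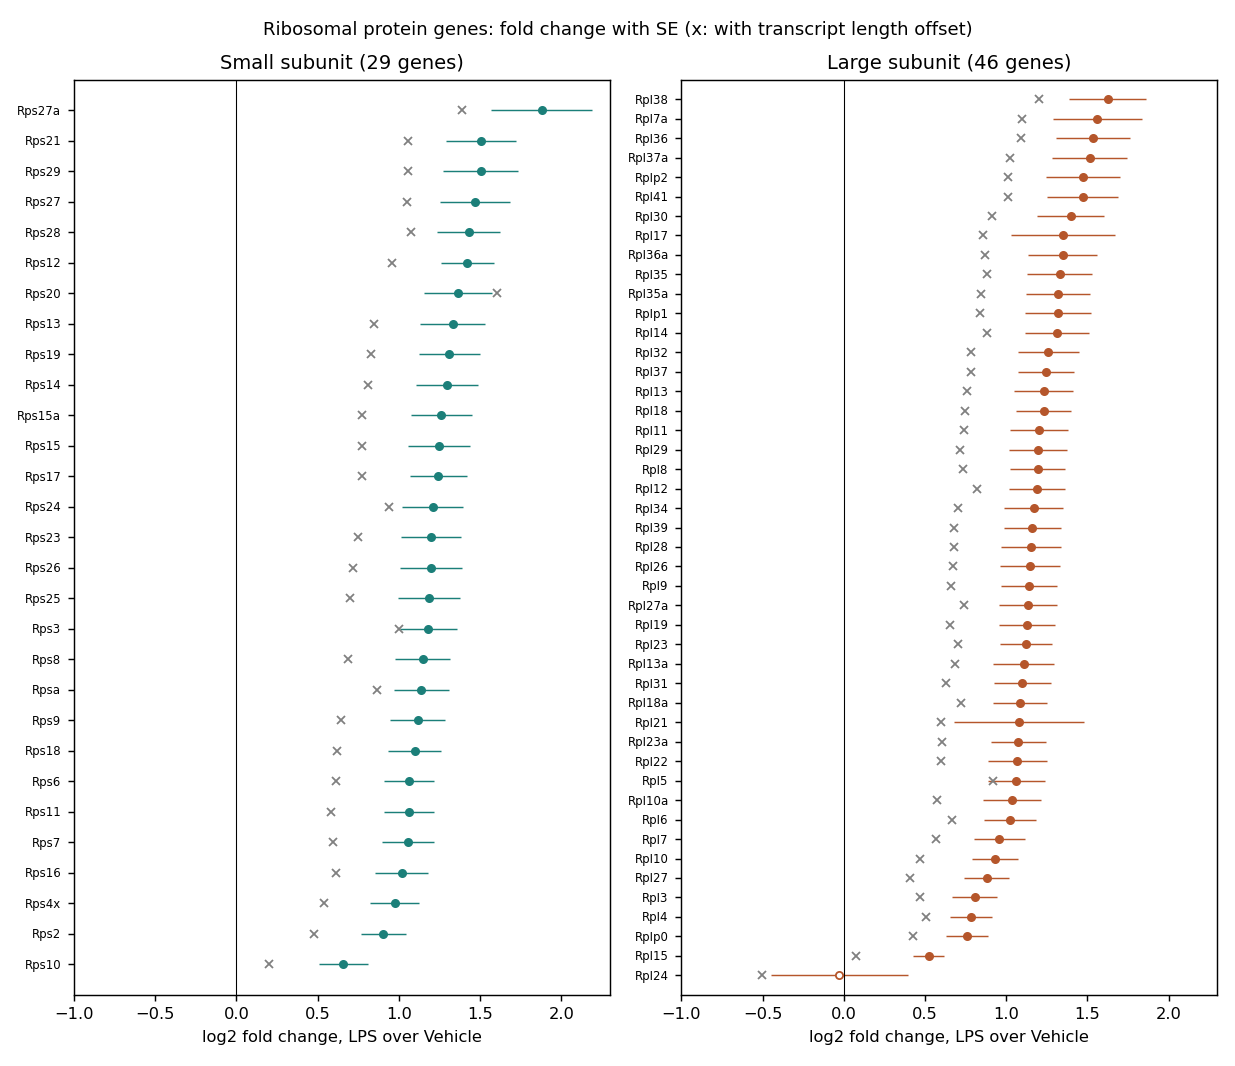
Log2 fold change of LPS over Vehicle for 29 of the 30 small and all 46 large subunit genes, with the standard error of the fit as bars (3 libraries per group). Filled circles are genes called higher, the open circle is Rpl24, and grey crosses show the value with the offset for transcript length described in the text; all but Rpl24 lie to the right of 0 among the circles.

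In the whole set the change can be read without any fitted scaling. Small subunit genes held 1.11, 1.07 and 1.19% of all counts in Vehicle 1, 2 and 3 and 1.79, 2.53 and 2.87% in LPS 1, 2 and 3, a mean of 1.12% ± 0.0639 against 2.40% ± 0.552 (SD, n = 3). Large subunit genes held 1.63, 1.57 and 1.74% in Vehicle and 2.51, 3.53 and 3.99% in LPS, a mean of 1.65% ± 0.0842 against 3.34% ± 0.760 (SD, n = 3). The groups did not overlap in either subunit, the Vehicle libraries were close to each other, and LPS 1 lay nearest to them. Small subunit counts came to 0.681, 0.679 and 0.686 of the large subunit counts in Vehicle and to 0.713, 0.717 and 0.718 of them in LPS, so the ratio was higher in each LPS library, by less than the rise of either subunit. Scaled by the length of each gene's transcript, the ratio was 0.693, 0.691 and 0.696 in Vehicle and 0.720, 0.714 and 0.711 in LPS. The share of counts from mitochondrially encoded genes was lower in LPS, at 1.28 to 1.66% against 1.88 to 1.97%, and its part in the result was not tested; with those genes left out of the total, the share of the small subunit still differed by 1.29 and that of the large subunit by 1.71 percentage points.

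**Figure D2:**
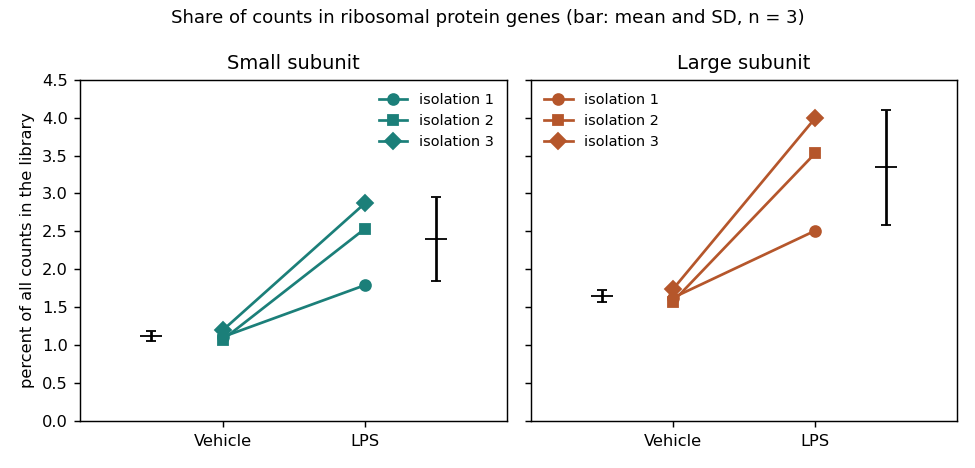
Percent of all counts of each library in small subunit (left) and large subunit (right) genes; lines join the Vehicle and LPS culture of 1 isolation, and the bars give the mean and SD of 3 libraries. Both shares are higher in LPS in each isolation, least in isolation 1.

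Isolation 1 showed the smallest rise for nearly every gene. The median log2 ratio of LPS to Vehicle within an isolation was 0.717, 1.33 and 1.46 for the small subunit in isolations 1, 2 and 3 and 0.694, 1.29 and 1.39 for the large subunit. LPS 1 had the lowest CPM of the LPS libraries in 30 of 30 and 46 of 46 genes, and isolation 1 the lowest ratio in 30 and 45. All 30 small and 45 large subunit genes were higher under LPS in each of the 3 isolations. The shares of all tested genes that match these counts were not computed. By the stricter measure of every LPS library above every Vehicle library, the share of all tested genes was 31.1%. Of 1506 other tested coding genes of like transcript length, 1292, 1352 and 1343 were above their Vehicle mean in LPS 1, 2 and 3. The median shift of those other genes was also lowest in LPS 1. The F-test of the isolation terms called none of the 76 members (smallest edgeR adjusted p = 0.540, and 0.00689% of all tested genes called). Without adjustment, 28 members had a p below 0.05 in that F-test, and the share of all tested genes at that threshold was not computed. The test looks for level differences shared by both cultures of an isolation. Having no term for unequal rises, it cannot decide whether isolation 1 rose less. With LPS 1 as the only LPS library, 29 small and 43 large subunit genes were called higher, beside 12.9% of all tested genes, with medians of 0.68 and 0.66; that fit assumes that the lone library varies like the other group.

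**Figure D3:**
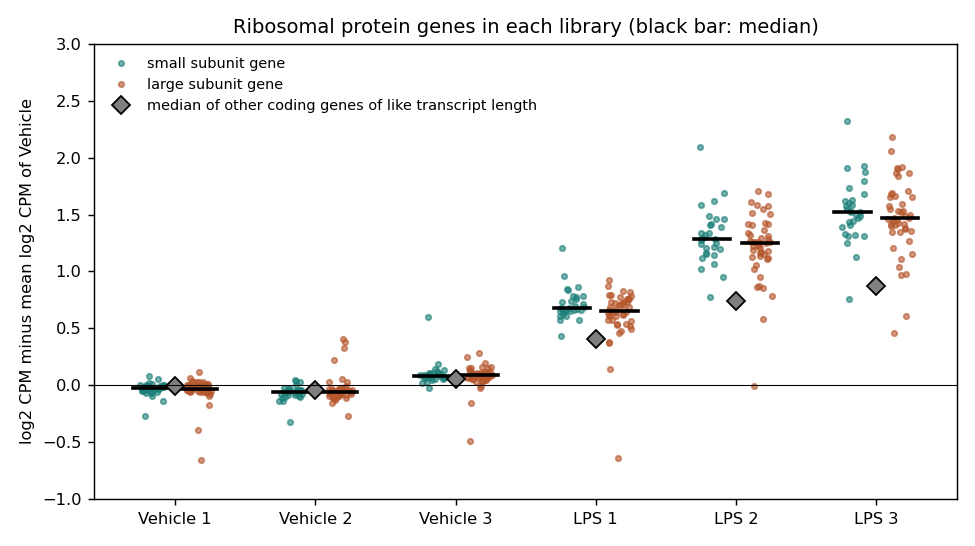
Log2 CPM of each member in each library minus its mean over the 3 Vehicle libraries; points are genes, black bars the median of a subunit, and diamonds the median of other tested coding genes of like transcript length. The medians of both subunits are near 0 in Vehicle, about the same height in each LPS library, lowest in LPS 1, and above the diamonds in all 3 LPS libraries.

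Among the small subunit genes, Rps27a moved most. It encodes ubiquitin fused to a ribosomal protein (ENSMUSG00000020460, chr11:29545846-29548109, GRCm38, minus strand), and it measured 140, 134 and 255 CPM in Vehicle 1, 2 and 3 and 388, 720 and 842 CPM in LPS 1, 2 and 3. Vehicle 3 stood above the other Vehicle libraries, yet below every LPS library. The log2 fold change was 1.88 ± 0.31 (SE; adjusted p = 0.00161 in edgeR). Rps21 followed with 146, 144 and 158 CPM in Vehicle and 267, 459 and 549 CPM in LPS, and Rps29, a zinc-binding protein, with 81.4, 85.3 and 81.0 against 141, 247 and 314 CPM. In both genes the groups were well apart, with log2 fold changes of 1.51 ± 0.22 and 1.50 ± 0.23 (SE, edgeR adjusted p = 0.00144 and 0.00148). Rps27, another zinc-binding protein, measured 140, 139 and 156 CPM in Vehicle and 260, 399 and 544 CPM in LPS, a log2 fold change of 1.47. Its identical copy Rps27rt drew 6234 counts over all libraries beside 31868 of Rps27, so the split between both is uncertain; with the copies added the value was 1.51.

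Small subunit proteins with known roles at the mRNA channel, in signalling and in assembly rose as well, with smaller values than these. Rps3, which lies at the entry of the mRNA channel, measured 578, 592 and 653 CPM in Vehicle and 984, 1440 and 1714 CPM in LPS, a log2 fold change of 1.18 ± 0.18 (SE) and, by edgeR, an adjusted p of 0.00144. Rps3 is also 1 of 3 members for which no near-identical copy was found. Rps6, the substrate of the S6 kinases downstream of mTORC1, rose from 585, 594 and 656 to 971, 1328 and 1538 CPM, a log2 fold change of 1.06. Rpsa, which is also known as a laminin receptor, had a log2 fold change of 1.14, Rps19 and Rps15, both assembly-critical proteins of which the first is the gene most often mutated in human Diamond-Blackfan anaemia, 1.31 and 1.25, and Rps15a and Rps25 1.26 and 1.19. Rps4x, encoded on the X chromosome, and Rps2, at the mRNA entry beside Rps3, stood lower at 0.97 and 0.90. All 9 genes were called higher, with no overlap between the groups.

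Rps10 (ENSMUSG00000052146, chr17:27630418-27636669, minus strand), which sits on the head of the small subunit, had the lowest value of its subunit. It measured 6.90, 7.39 and 7.34 CPM in Vehicle and 9.71, 12.4 and 12.2 CPM in LPS. The LPS libraries were higher without overlap, with a log2 fold change of 0.66 ± 0.15 (SE) and, by edgeR, an adjusted p of 0.00589. Its level per kilobase of transcript was 14.5 CPM in Vehicle, where Rps2 had 857 CPM per kilobase. Most counts that could come from Rps10 lay elsewhere: the gene held 7.86% of the counts summed over itself and 3 near-identical copies, of which Rps10-ps2 drew 11788 counts. With the copies added its log2 fold change was 1.09 (edgeR adjusted p = 0.00126).

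In the large subunit the highest value was that of Rpl38 (ENSMUSG00000057322, chr11:114668524-114672331, plus strand), whose loss in mice alters the translation of Hox mRNAs. It measured 72.6, 70.9 and 74.4 CPM in Vehicle and 133, 237 and 302 CPM in LPS. The Vehicle libraries were nearly equal and all LPS libraries were higher, with a log2 fold change of 1.62 ± 0.24 (SE) and, by edgeR, an adjusted p of 0.00144. Rpl7a measured 116, 141 and 109 CPM in Vehicle and 230, 298 and 552 CPM in LPS, the last of these well above the rest of its group. Its log2 fold change was 1.56 ± 0.27 (SE; adjusted p = 0.00197 in edgeR), and 1.32 with its 28 near-identical copies added. Rpl36 rose from 119, 114 and 138 CPM to 218, 396 and 462 CPM, a log2 fold change of 1.53.

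The stalk of the large subunit, which recruits and activates the elongation factors, is made of Rplp0 at its base and of dimers of Rplp1 and Rplp2. Rplp0 measured 1310, 1218 and 1326 CPM in Vehicle and 1786, 2209 and 2528 CPM in LPS, a log2 fold change of 0.76 ± 0.13 (SE) and, by edgeR, an adjusted p of 0.0018. Rplp1 measured 585, 571 and 634 CPM in Vehicle and 976, 1599 and 1886 CPM in LPS, and Rplp2 206, 202 and 232 against 363, 635 and 776 CPM, with log2 fold changes of 1.32 ± 0.20 and 1.47 ± 0.23. Per length of transcript, the level of Rplp1 relative to that of Rplp0 was 1.22, 1.27 and 1.30 in Vehicle 1, 2 and 3 and 1.49, 1.97 and 2.03 in LPS 1, 2 and 3, and that of Rplp2 was 0.507, 0.534 and 0.564 against 0.656, 0.927 and 0.990. The groups did not overlap in either ratio. The transcript of Rplp0 is the longest of the 3, at 1358 bases against 499 and 421, a difference that matters for the values on length below.

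Rpl5 and Rpl11, which bind the 5S rRNA and, when free, the p53 ligase Mdm2, rose by 1.06 ± 0.18 and 1.20 ± 0.18 on the log2 scale (SE). Rpl11 measured 375, 375 and 405 CPM in Vehicle and 627, 916 and 1114 CPM in LPS, with no overlap. Rpl26, which in human cells binds the mRNA of p53, had 1.15, and Rpl22, a protein with a role in T cell development in mice, 1.07. Rpl13a, part of a complex that silences inflammatory mRNAs in human myeloid cells, was low for a ribosomal protein gene, with 28.7, 30.9 and 31.6 CPM in Vehicle and 45.1, 69.0 and 82.8 CPM in LPS, a log2 fold change of 1.11 ± 0.19 (SE) and, by edgeR, an adjusted p of 0.0018. Rpl10, which joins the large subunit late in assembly, measured 481, 448 and 491 CPM in Vehicle and 701, 957 and 1048 CPM in LPS, a log2 fold change of 0.93. All of these were called higher.

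Rpl15 had the lowest value among the called large subunit genes. It measured 302, 313 and 330 CPM in Vehicle and 406, 471 and 480 CPM in LPS, which did not overlap, and its log2 fold change was 0.52 ± 0.09 (SE; adjusted p = 0.0022 in edgeR). Rpl3, next to the peptidyl transferase centre, had 0.81 and Rpl4, which lines the exit tunnel, 0.79. At the other end of size, Rpl41 encodes the smallest ribosomal protein. It measured 535, 468 and 564 CPM in Vehicle and 923, 1558 and 1867 CPM in LPS, a log2 fold change of 1.47 ± 0.22 (SE) and, by edgeR, an adjusted p of 0.00144. Its coding sequence (75 bases, chromosome 10, minus strand, GENCODE M21 without the stop codon) is shown whole because it is identical in 4 other loci, which drew 2273 counts beside 114585 of Rpl41.
Rpl41 coding sequence: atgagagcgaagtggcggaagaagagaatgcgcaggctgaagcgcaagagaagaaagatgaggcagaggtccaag
Per kilobase of transcript, Rplp1 and Rpl41 had the highest levels of all members in Vehicle, at 1196 and 1195 CPM, and Rpl24 the lowest, at 1.34 CPM.

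Rpl24 (ENSMUSG00000098274, chr16:55966275-55971435, plus strand), a protein at the bridge between the subunits, was the one gene not called, at 0.953, 1.15 and 0.625 CPM in Vehicle and 0.566, 0.875 and 1.21 CPM in LPS. The groups overlapped, and the log2 fold change was -0.03 ± 0.42 (SE; adjusted p = 0.964 in edgeR). The gene held 105 counts over all libraries, 9.57% of the sum with its 3 near-identical copies. The copy Gm9385, with 99.79% identity, drew 727. The copies summed to 5.27, 4.43 and 5.98 CPM in Vehicle and 9.43, 10.8 and 14.4 CPM in LPS, and with them added the log2 fold change was 1.03 (edgeR adjusted p = 0.00226).

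Copies touched most of the set. Of the 76 members, 73 had at least 1 other locus with at least 95% identity over at least 90% of the coding sequence, 537 loci in all, and 23 had an identical one; 3 had none, Rps3 and Rpl8 among them. In 54 members the gene itself held more than 90% of the summed counts, and in 4 it held less than 50%: Rpl24, Rps10, Rpl17 (38.4%) and Rpl21 (44.2%). Rpl17 and Rpl21 were singled out after their values were seen. Rpl17 measured 93.6, 154 and 128 CPM in Vehicle and 159, 351 and 448 CPM in LPS, which did not overlap, and its log2 fold change of 1.35 became 1.03 with copies added. Rpl21 measured 56.6, 119 and 106 CPM in Vehicle and 98.5, 163 and 334 CPM in LPS, so that LPS 1 lay within the Vehicle range. Its log2 fold change was 1.08 ± 0.40 (SE; adjusted p = 0.0468 in edgeR), and the call was lost in edgeR without Vehicle 1, Vehicle 2, Vehicle 3, LPS 2 or LPS 3 (adjusted p = 0.160, 0.0662, 0.0826, 0.0687 and 0.180), where the log2 fold change was 0.48 without LPS 3. With its 54 copies added it was 1.01 (adjusted p = 0.00486). Over the 53 members with at least 1000 counts in copies, the summed copies had a median log2 ratio of LPS to Vehicle of 1.00 (range 0.53 to 1.64). With copies added to each member, 30 small and 46 large subunit genes were called higher, beside 24.9% of all genes tested in that fit.

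**Figure D4:**
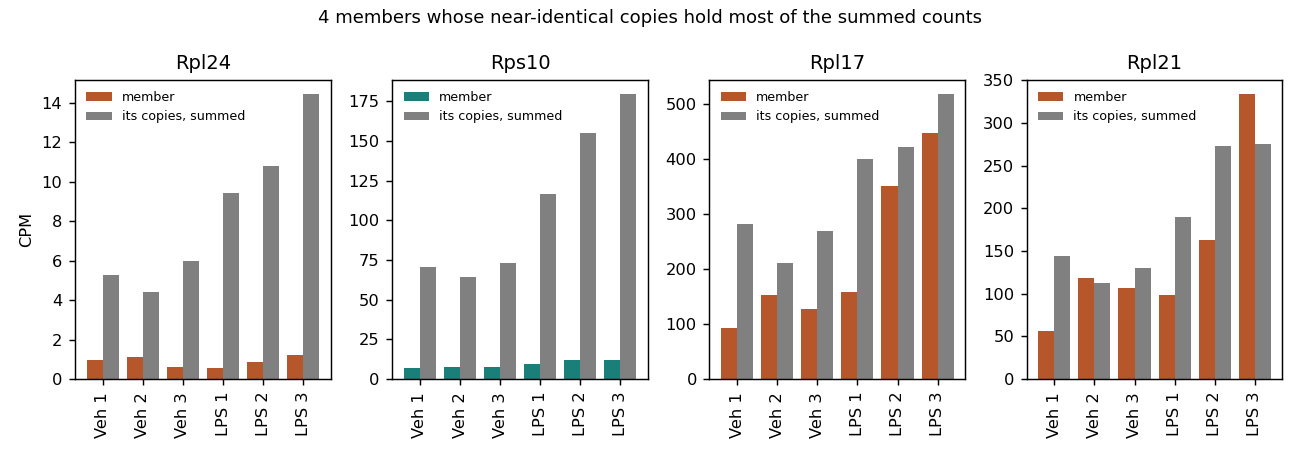
CPM in each library of 4 genes (coloured bars) and of their near-identical copies added together (grey bars); axes start at 0 and differ between panels. For Rpl24, Rps10 and Rpl17 the copies exceed the gene in every library, and for Rpl21 in all but Vehicle 2 and LPS 3. The grey bars are higher in each LPS library than in each Vehicle library in all 4 panels.

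Most ribosomal protein mRNAs are short, and short genes as a class were higher under LPS in these libraries. The members' transcripts had a median of 716 bases, against 2842 bases over all tested coding genes. Among the other tested coding genes with transcripts of 455.5 to 1310.5 bases (the range of the middle of the members, from the 10th to the 90th percentile), 68.9% (1038 of 1506) were called higher and 38 lower, with a median log2 fold change of 0.70. Of the members within that range, 59 of 60 were called higher, with a median of 1.16. The median shift of the other genes of that range from the Vehicle mean was 0.405, 0.743 and 0.875 in LPS 1, 2 and 3, again lowest in LPS 1, where the small subunit had 0.679, 1.29 and 1.52 and the large subunit 0.655, 1.25 and 1.47. The medians of both subunits lay above that of the other genes of their length in each LPS library.

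**Figure D5:**
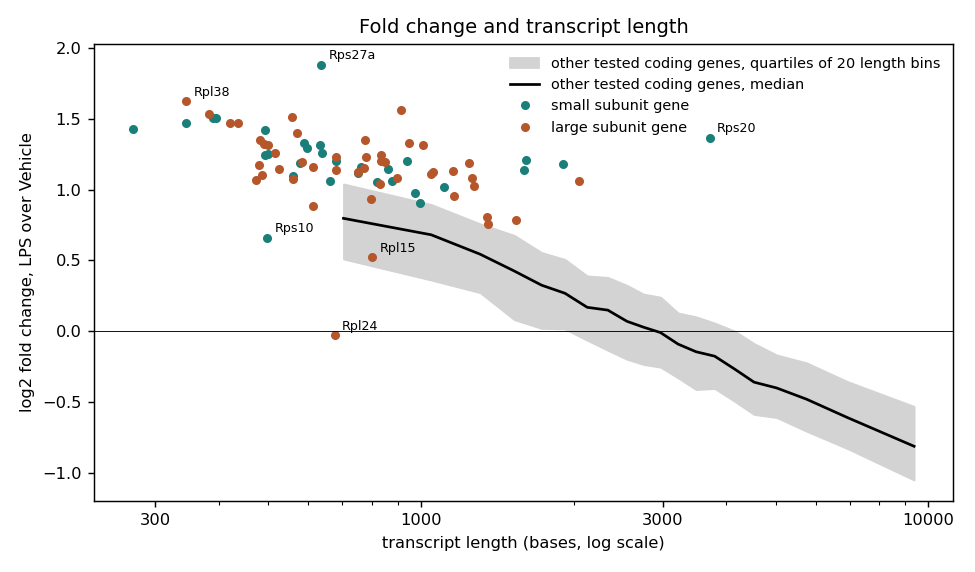
Log2 fold change of LPS over Vehicle against transcript length (log scale) for the members (points) and for the other tested coding genes in 20 bins of length (line, median; grey band, quartiles). The medians of the other genes fall with length from 0.80 in the shortest bin, and 70 of 76 members lie above the upper quartile of the bin nearest in length; 38 members are shorter than the median of 704 bases of the first bin.

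With an offset for transcript length, fitted on all genes of each library, 29 small and 43 large subunit genes were called higher (edgeR, with 22.6% of all tested genes called higher and 13.9% lower). The median log2 fold changes were then 0.77 and 0.72, beside 0.06 over all tested genes and 0.28 over the other genes of the length range, of which 573 of 1506 were called higher and 105 lower. A called doubling or more was found with the offset for 6 small and 6 large subunit genes, beside 310 of 14502 tested genes. The log2 fold change was smaller with the offset in 75 of 76 members. The exception, Rps20, has an annotated transcript of 3706 bases, and its log2 fold change of 1.36 became 1.61. The members without a call under the offset were Rpl15 (0.07, edgeR adjusted p = 0.452), Rps10 (0.20, adjusted p = 0.249), Rpl21 (0.60, adjusted p = 0.186) and Rpl24 (-0.50, adjusted p = 0.362). With the paired isolations as a block as well, Rpl21 was called higher (0.55, edgeR adjusted p = 0.0214). With the offset Rps27a had 1.39 and Rpl38 1.20, and Rplp0, Rplp1 and Rplp2 had 0.43, 0.84 and 1.01.

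Within the set, the median fold change was lower in each class of longer coding sequences, although the highest single values, of Rps27a and Rpl38, lay in different classes. The median log2 fold change was 1.47 in the 9 genes with at most 300 coding bases, 1.20 in 38 genes with more than 300 and up to 500, 1.13 in 16 genes with up to 700 and 1.03 in 13 longer ones. With the offset these medians were 1.05, 0.76, 0.68 and 0.61. Across the 76 genes, log2 fold change and log2 coding length correlated with r = -0.48 (Spearman rho = -0.63), and with r = -0.57 without Rpl24 (75 genes); the points share their 6 libraries. The correlation with GC content was 0.02.

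Some ribosomal protein genes and paralogues have symbols outside the pattern. Fau, which encodes a ubiquitin-like protein fused to a small subunit protein, rose by 1.37 on the log2 scale, Rps3a1 by 1.11 and Rack1, a signalling scaffold on the small subunit, by 0.88. Of the paralogues, Rps27l, Rpl22l1 and Rpl7l1 were called higher, with 1.15, 1.16 and 0.50. With the offset for transcript length, Rps27l and Rpl22l1 stayed called, at 0.676 and 0.683. Rpl7l1 then had 0.16 and was not called (edgeR adjusted p = 0.0869). Rpl36al and Rps4l, with means of 1.19 and 1.57 CPM in Vehicle, were not called (0.78 and 0.59, edgeR adjusted p = 0.0742 and 0.154). Rpl39l and Rpl10l had 0 counts in every library and Rpl3l had 1 count in 1 library, so none of them was tested.

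The genes around the ribosome were read from lists by function; over all tested genes, 24.9% were called higher and 24.4% lower, and with the length offset 22.6% and 13.9%. Of 77 tested mitochondrial ribosomal protein genes, which serve translation inside mitochondria, 75 were called higher and 0 lower, with a median log2 fold change of 0.82 (0.51 and 57 higher with the length offset). Of 16 translation factors and other genes known for TOP mRNAs, 13 were called higher and 0 lower, with a median of 0.79 (0.48 with the offset). Within that list Eef1b2, the exchange factor of elongation factor 1, had 1.16, and Eef1a1, the factor itself, 0.40, from 6029.99, 5861 and 6339 CPM in Vehicle to 7215, 8233 and 8553 CPM in LPS. Eef2, the translocation factor, had 0.14 (edgeR adjusted p = 0.223), and Eif4b and Pabpc1 were also not called, at -0.14 and 0.21 (edgeR adjusted p = 0.164 and 0.0954). With the offset Eef2 and Pabpc1 were called higher, at 0.24 and 0.25 (edgeR adjusted p = 0.0366 and 0.0432). Eif4b was not called with it, at 0.11 (edgeR adjusted p = 0.273).

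Of 26 ribosome assembly factors, 22 were called higher and 2 lower (all tested genes, 24.9% and 24.4%), with a median log2 fold change of 0.61 with or without the offset. Fbl, the methyltransferase of box C/D particles, measured 93.9, 98.9 and 113 CPM in Vehicle and 177, 249 and 280 CPM in LPS, which did not overlap, with a log2 fold change of 1.21 ± 0.16 (SE) and, by edgeR, an adjusted p of 0.00135. Nhp2, of box H/ACA particles, had 1.40, Npm1 0.91 and Ncl 0.69. Single genes moved both ways with the offset: Fbl, Nhp2 and Npm1 had 0.83, 0.97 and 0.66, and Ncl had 1.38. The value of Ncl rests on an annotated transcript of 8202 bases. Whether that transcript is the one expressed here was not tested. Tsr1, which acts late on the small subunit, fell by 0.60 on the log2 scale (edgeR adjusted p = 0.00595). Heatr1 was called lower without the offset and higher with it, at -0.29 and 0.30.

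Of 14 genes of RNA polymerase I, which makes rRNA, and its factors, 6 were called higher and 0 lower (42.9% higher, beside 24.9% of all tested genes; median 0.26). With the offset 9 were called higher, where 22.6% of all tested genes were. Polr1d, a subunit shared with RNA polymerase III, had 1.13. Of 18 regulators around mTORC1 and TOP mRNAs, 6 were called higher and 9 lower (median -0.22). Of all tested genes, 24.9% were called higher and 24.4% lower. The share of higher regulators, 33.3%, was near that of all genes, while the share of lower ones was above it. With the offset 7 were called higher and 3 lower (median 0.12). Myc, a transcription factor that drives ribosome production, measured 48.7, 51.1 and 61.3 CPM in Vehicle and 71.7, 82.5 and 96.2 CPM in LPS. The groups did not overlap, and the log2 fold change was 0.63 ± 0.13 (SE), with an edgeR adjusted p of 0.00357. With the offset the value of Myc was 0.31 (edgeR adjusted p = 0.0342). Mtor, which has a long transcript, had -0.71 and, with the offset, -0.03 (edgeR adjusted p = 0.793), so its call depended on the length term. Larp1, the repressor of TOP mRNAs, had -0.08 (edgeR adjusted p = 0.440) and with the offset 0.50 (adjusted p = 0.00362).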

How the data were processed

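The labels' protocols give TRIzol extraction of total RNA and paired-end sequencing. The submitters' processing notes name HISAT2 and the build GRCm38 (mm10). How reads were counted, with or without strand, and on which annotation is not stated in the sources used here, so a member and a gene that overlaps it can share reads. The deposited table holds the authors' raw counts per gene, whole numbers with no normalization, and a gene length, per the file headers. Columns without a treatment in their name (M1 to M3) were taken as Vehicle by elimination. The members and lists were chosen with earlier results of these data known.

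LPS was tested against Vehicle in edgeR 4.0.16 (R 4.3.3, TMM, filterByExpr, quasi-likelihood F-test, Benjamini-Hochberg over all 14508 tested genes), without the isolation as a block. The model was checked on simulated data with the same spread setting for every gene and both groups and no trend with length. That check does not cover the wider spread of the LPS libraries or the length offset. SE is that of the fitted log2 fold change. The labels say that a number is 1 isolation shared by 2 cultures, so the numbers pair the libraries; deviations of paired libraries correlated across genes by 0.0958, -0.0450 and 0.206. Whether p-values cover more than the spread between these cultures is not known. Alternatives were DESeq2 size factors, library sizes alone, other filters, DESeq2 1.42.0, voom of limma 3.58.1, coding genes alone, the block, an offset for the deposited gene length, pseudogene rows added by name, and leaving out each library and isolation. Added after seeing the data were an offset for the length of the shortest principal GENCODE M21 transcript (spline with 5 degrees of freedom), near-identical copies found with blastn 2.17.0, fits without LPS 2 and LPS 3, further fits without isolation 2, and these combined. Length-scaled shares divide each gene's counts by its length. Named members are, per subunit, the 3 highest and 3 lowest called fold changes, the 2 most abundant per length, those not called, and a fixed panel. Count floors cover counting error only. A few genes of the set and of the lists are counted but not reported here by name.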

Additional observations from a re-analysis of the deposited data

How the results depend on the processing

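The medians of both subunits were above 0 in each setting, and the counts of called members fell to 0 when 1 isolation was left out. Without isolation 2, edgeR called 0 small and 0 large subunit genes, with 8 genes higher and 0 lower in the whole table. An unadjusted p below 0.05 was found for 30 small and 45 large subunit genes, and for 5056 of 14763 tested genes. On the same libraries DESeq2 called 28 and 43 higher, beside 10.5% of all tested genes. With the isolation as a block, edgeR called 30 and 45 higher there, beside 15.7% of all tested genes. Over the fits that left out 1 library or 1 isolation, 0 to 30 small and 0 to 45 large subunit genes were called higher, and the medians ranged from 1.01 to 1.40 and from 0.98 to 1.37.

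With the paired libraries as a replicate block, 30 and 45 genes were called higher, beside 25.5% of all tested genes. The medians were 1.16 and 1.12, and no call of a member changed. With the transcript length offset, the block brought back the call of Rpl21 (0.55, adjusted p = 0.0214 in edgeR). The transcript length offset gave medians of 0.77 and 0.72, with the block added 0.76 and 0.70, and with copies added 0.73 for the large subunit. Without LPS 2 and LPS 3 the medians were 0.68 and 0.66. The length-scaled share of the small subunit differed by 1.63 percentage points with the deposited length and by 2.39 with the transcript length. Deposited lengths have a median of 1775.5 bases over the members and transcripts 716 bases.

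Rpl21 also missed the threshold with library sizes alone (adjusted p = 0.0544 in edgeR), DESeq2 (0.114), limma-voom (0.0717) and the deposited length offset (0.0557 in edgeR). Rpl24, with 105 counts, was -0.03 and changed sign without Vehicle 1 (0.01), Vehicle 2 (0.17), LPS 1 (0.22), isolation 1 (0.26) and isolation 2 (0.18 in edgeR and in DESeq2, 0.15 with the block), with copies added (1.03) and with copies and the offset (0.59). Its range without 1 isolation was -0.56 (isolation 3) to 0.26. The cause was not tested.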
